A study of Mus musculus with 8 samples.

Results

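Among the 35976 genes of the deposited table, 48 genes of the extracellular matrix were taken by symbol, from a list made by function. They encode matrix glycoproteins, laminins, proteoglycans and the enzymes that crosslink or fold matrix proteins. All 48 were in the table, and their list was made with earlier results of these data known. RNA came from C2C12 cells, a mouse line of skeletal muscle myoblasts, in 8 libraries. A non-targeting shRNA (control) had been transfected for 4 of them, and for the other 4 an shRNA directed at Atad2, the gene of a bromodomain ATPase of chromatin. RNA was extracted 48 h after transfection in both groups. Per the labels, all libraries come from the same cell line, and whether those of a group were separate cultures is left unsaid there, so that the p-values take in the spread among these 8 libraries and no other.

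The matrix around a muscle fibre is layered. A basement membrane of laminins, nidogens and perlecan lies against the cell, and laminins with the alpha 2 chain tie the muscle fibre to it. Outside it, collagens, fibronectin, elastic fibres and proteoglycans give strength and hold growth factors. Lysyl oxidases start the crosslinks of collagen and elastin, and lysyl hydroxylases modify collagen inside the cell. Matricellular proteins, such as thrombospondins and periostin, sit in the matrix and modulate adhesion and signalling more than they bear load.

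Levels are given as log2(normalized count + 1), a scale that understates changes of weak genes, and changes as log2 fold changes of the Atad2 over the control libraries with their SE (n = 4 libraries each). Where values of both groups follow each other, those of the controls come first, and genome positions are in GRCm38. A change is called where limma's adjusted p, over all genes tested, was under 0.05. Libraries held 50.3 to 73.0 Mreads (megareads) each, so that a gene without a read in a library lay under 0.0411 to 0.0596 RPM (3 reads of the library total, counting error only). Atad2 itself was lower in every library with its shRNA, at 14.66, 14.74, 14.67 and 14.61 under control shRNA and 11.87, 11.77, 12.05 and 12.05 under Atad2 shRNA (-2.73 ± 0.05, 6.66-fold lower, limma adjusted p = 4.58e-20). The myoblast genes Myod1 and Des had reads in all libraries and rose, whereas 5 of the 8 myoblast markers listed fell. Among those, Pax7 had 0 reads in Atad2 replicate 4. Atad2 replicate 3, which was also the library of lowest depth, stood apart from the other 7 on the second principal component, which held 8.29% of the variance.

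Of the 48 members, 42 had a mean level above 3 and were tested. In the Atad2 libraries 14 of them rose, 20 fell and 8 did not pass (limma, adjusted p under 0.05). In such bulk libraries, fewer cells of a type and less RNA per cell cannot be told apart. Over all 14703 genes tested, 30.8% rose, 29.6% fell and 60.4% changed in either direction, against 33.3%, 47.6% and 81% of the members. Since the list was made with earlier results known, these shares describe the members and are no independent support. A mean level above 11 was reached by 26 members. Among all genes above that level, 49.9% rose and 21.7% fell, whereas of these 26 members 10 rose and 13 fell. The median change of the 42 members was -0.05, beside -0.01 over all genes tested, and their median change regardless of sign was 0.36, beside 0.25. Without Atad2 replicate 3, 14 members rose and 19 fell. A change of at least 2-fold was seen for 2 of the members that rose and 7 of those that fell, where 2.52% of all genes tested rose and 8.61% fell by as much.

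Of the 42 members, 29 had values in one group that did not overlap those of the other, 12 with the Atad2 libraries above and 17 with them below. Over all genes tested this was so for 53.5%, 27.7% with the Atad2 libraries above and 25.8% below. Together the 48 genes took 1.39% ± 0.0433 of the reads under control shRNA and 1.33% ± 0.0343 under Atad2 shRNA (SD, n = 4 each). The matricellular genes took 0.173% to 0.193% of the reads in each control library and 0.109% to 0.116% in each Atad2 library. The strongest genes weigh most in such shares, here Sparc and Thbs1, which both fell. The share of the basement membrane genes was 0.399% ± 0.0137 under control shRNA and 0.399% ± 0.00746 under Atad2 shRNA, although 7 of these 9 genes changed. Hspg2, which fell, and Nid1, which rose, weighed most in this share.

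**Figure D1:**
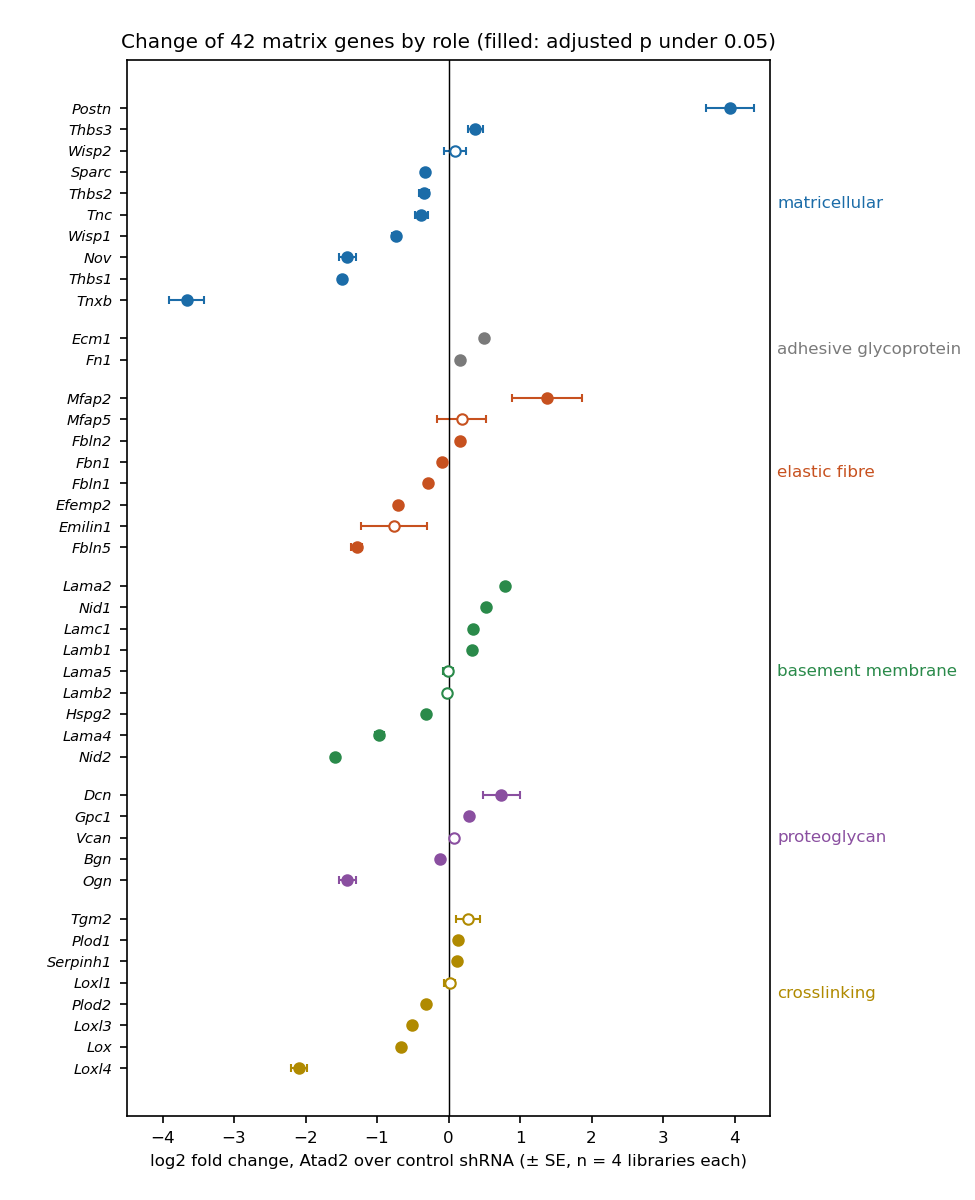
Each point is the log2 fold change of a tested matrix gene, Atad2 over control shRNA, with its SE as a bar (n = 4 libraries each), grouped and coloured by role; filled points passed an adjusted p under 0.05. Postn (3.94) and Tnxb (-3.66) lie farthest from 0 on either side, and most points of the matricellular group lie below 0.

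The matricellular genes were the group with the most decreases: 7 of 10 fell, 2 rose and 1 did not pass, with a median change of -0.36. Postn (chromosome 3, 54359267 to 54391041) encodes periostin, a matricellular protein of injured and regenerating tissue. It lay at 5.34, 3.59, 3.49 and 5.02 under control shRNA and at 8.38, 8.50, 8.37 and 7.94 under Atad2 shRNA. All Atad2 libraries were above all controls, and the control libraries themselves spread widely, with 11 to 42 reads each against 211 to 377. The log2 fold change was 3.94 ± 0.33 (15.3-fold higher, limma adjusted p = 2.27e-09).

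Tnxb (chromosome 17, 34660453 to 34719815) encodes tenascin-X, a large glycoprotein that organises collagen in connective tissue. It went the opposite way, from 8.04, 8.39, 7.70 and 7.89 to 4.05, 4.11, 4.93 and 4.29. Only 16 to 23 reads were left in each Atad2 library, from 223 to 333 in each control (-3.66 ± 0.25, 12.7-fold lower, limma adjusted p = 6.39e-11). An exon of Tnxb overlaps the pseudogene Cyp21a2-ps on the opposite strand. Its relative Tnc (tenascin-C), a protein of developing and wounded tissue, changed by -0.38 ± 0.09 (limma adjusted p = 0.000972), with overlapping values. The Tnc call was lost with a robust prior (limma adjusted p = 0.0615, range 1.15e-06 to 0.0615 over the alternatives).

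Postn in the controls and Tnxb in the Atad2 libraries were thus counted on few reads. Promoter sequences from RefSeq (GRCm38.p6), the 250 bases before the annotated start on the gene's strand, are shown for them because they mark the extremes of the group in each direction. Capitals mark any match on either strand to 4 short motifs: TATAAA (the TATA box), GGAATG (bound by TEAD factors), TGANTCA (bound by AP-1) and CAGCTG (an E-box bound by myogenic factors). The Postn window is chr3:54359017-54359266 on the plus strand and the Tnxb window chr17:34670285-34670534 on the plus strand, which lies inside the annotated span of the gene.
Postn: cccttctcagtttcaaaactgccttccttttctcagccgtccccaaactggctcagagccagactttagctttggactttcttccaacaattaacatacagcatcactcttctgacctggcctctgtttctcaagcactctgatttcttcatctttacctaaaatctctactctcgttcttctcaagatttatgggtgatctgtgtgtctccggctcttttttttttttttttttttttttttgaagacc
Tnxb: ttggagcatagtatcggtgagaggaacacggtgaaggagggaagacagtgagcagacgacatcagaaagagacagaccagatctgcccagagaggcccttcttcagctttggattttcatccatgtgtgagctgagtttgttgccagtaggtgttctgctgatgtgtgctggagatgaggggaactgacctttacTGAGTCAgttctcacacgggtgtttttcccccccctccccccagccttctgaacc
The Postn window held none of the 4 motifs, and the Tnxb window held TGANTCA, starting 55 bases before the annotated start. Of all 27025 RefSeq windows (1 per gene), 13% held TATAAA, 12.6% GGAATG, 6.87% TGANTCA and 12.8% CAGCTG. Of the 27 members with a window, 5, 2, 2 and 4 held them. A match is a description of the letters only.

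Thbs1 (chromosome 2, 118111876 to 118127133) encodes thrombospondin-1, an activator of latent TGF-beta and an inhibitor of vessel growth. It fell from 15.19, 15.20, 14.99 and 15.04 to 13.73, 13.70, 13.53 and 13.51. The groups were far apart and each was tight (-1.49 ± 0.05, 2.8-fold lower, limma adjusted p = 8.28e-16). Per kb of exon, Thbs1 stood at 5817 ± 422 normalized counts under control shRNA and 2075 ± 162 under Atad2 shRNA, and Thbs2 at 321 ± 32.8 and 254 ± 28.5. The paralog Thbs2 changed by only -0.34 ± 0.07, with overlapping values. The difference between the paralogs was tested directly: the log2 ratio of Thbs1 to Thbs2 was 3.97 ± 0.05 under control shRNA and 2.83 ± 0.23 under Atad2 shRNA (SD, exact two-sided permutation p = 0.0286, adjusted over 9 pairs 0.0367). The value 0.0286 is the smallest that 4 against 4 libraries can give. Thbs3, a pentameric thrombospondin, lay at 9.19, 9.09, 9.04 and 8.80 and at 9.16, 9.35, 9.54 and 9.57. It rose by 0.37 ± 0.10 (limma adjusted p = 0.00363), with overlapping values, and an exon of it overlaps Mtx1 on the opposite strand.

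Of the 3 CCN family members, secreted regulators of adhesion and growth factor signals, 2 fell. Nov (now Ccn3, chromosome 15, 54745910 to 54753762) lay at 10.44, 10.48, 10.34 and 10.48 under control shRNA and at 8.93, 8.59, 9.12 and 9.44 under Atad2 shRNA. The Atad2 libraries were all lower and spread more widely than the controls (-1.41 ± 0.12, limma adjusted p = 1.70e-09). Wisp1 (now Ccn4) changed by -0.74 ± 0.06 (limma adjusted p = 4.51e-10), with no overlap. Wisp2 (now Ccn5) stood at 8.24 to 8.33 in 3 Atad2 libraries and at 9.16 in Atad2 replicate 4, against 8.32 to 8.54 in the controls (0.09 ± 0.16, limma adjusted p = 0.622). Sparc, a collagen-binding glycoprotein of remodelling tissue, changed by -0.34 ± 0.04, from 15.93 ± 0.06 to 15.59 ± 0.05, without overlap.

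Of 11 other matricellular genes listed by role, 8 were tested, of which 4 rose and 2 fell. The CCN genes Ctgf and Cyr61 changed by -2.70 ± 0.11 and -1.06 ± 0.06, and Spp1 (osteopontin) and Smoc2 rose by 1.04 ± 0.04 and 1.87 ± 0.06. All 4 had groups without overlap.

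**Figure D2:**
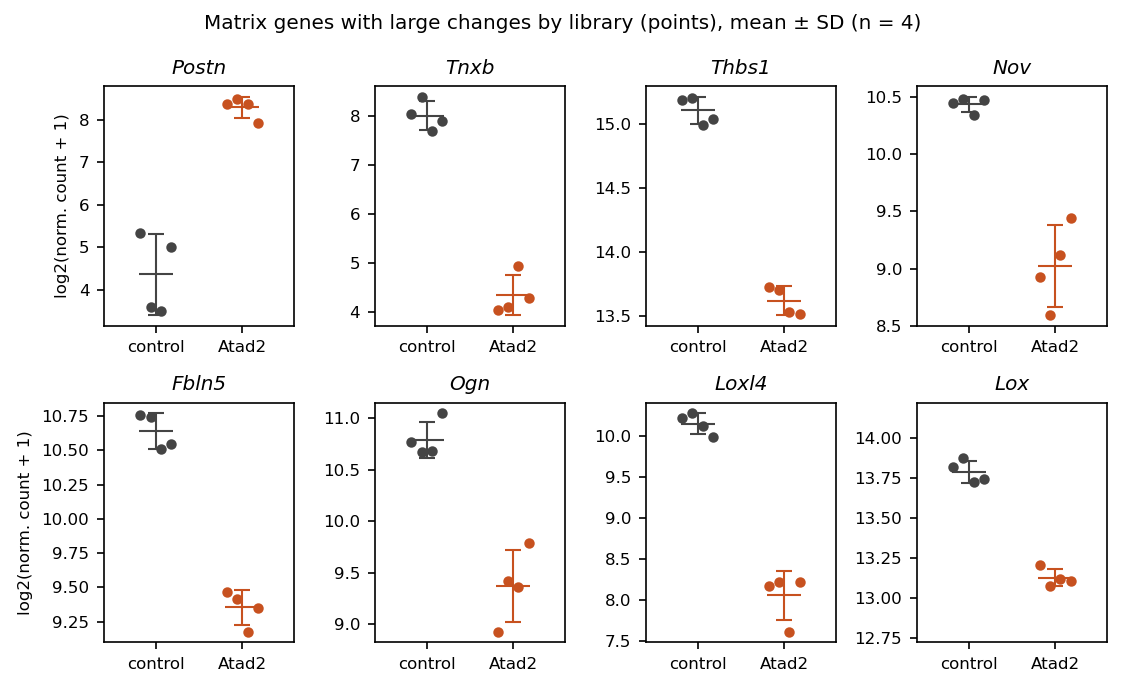
Each panel gives the log2(normalized count + 1) of one gene in the 4 control and 4 Atad2 libraries (points) with mean ± SD; vertical axes differ between panels and do not start at 0. Postn is the panel with the Atad2 libraries above the controls, and in the other 7 panels every Atad2 library lies below every control.

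Both adhesive glycoproteins that were tested rose, and a further 1 was too weak to test. Fn1 (fibronectin), which links integrins to collagen, stood at 17.29, 17.21, 17.23 and 17.12 under control shRNA and 17.34, 17.40, 17.34 and 17.42 under Atad2 shRNA. The Atad2 libraries were all above the controls, but by little (0.16 ± 0.04, limma adjusted p = 0.000754). With quantile normalization the Fn1 call was lost (limma adjusted p = 0.937, range 8.81e-05 to 0.937 over the alternatives). Ecm1 (chromosome 3, 95734147 to 95739876), a secreted glycoprotein that binds perlecan, rose from 15.05, 14.98, 14.94 and 15.00 to 15.48, 15.48, 15.47 and 15.53, without overlap (0.49 ± 0.03, limma adjusted p = 1.51e-11). Tgfbi, an adhesion protein induced by TGF-beta, was not tested, with 1 to 9 reads in each control and 0 to 11 per Atad2 library.

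Among 8 other adhesive genes, 6 were tested, 2 rose and 4 fell. Crim1 and Tinagl1 changed by -1.14 ± 0.04 and -1.54 ± 0.07. The matrilin gene Matn2 rose by 1.05 ± 0.05, and Matn4 rose by 3.93 ± 0.56, from 1 to 5 reads in each control to 22 to 95. Matn4 passed the filter on low values only through the Atad2 libraries.

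Of the elastic fibre genes, 4 of 8 tested fell, 2 rose and 2 did not pass, with a median change of -0.19. Elastic fibres form when tropoelastin is deposited on fibrillin microfibrils with the help of fibulins. No read was recovered for Eln (elastin), Fbn2 (fibrillin-2) or Mfap4 in any of the 8 libraries. Fibrillin-1 (Fbn1) was well expressed, at 13.47 ± 0.09 and 13.38 ± 0.02, with overlapping values. Its change of -0.09 ± 0.04 was called at limma adjusted p = 0.0478 and lost that call under 8 of 18 alternatives (range 0.000334 to 0.202). Among them were leaving out Atad2 replicate 1, 2 or 3 or control replicate 1 or 2, and the change was -0.06 without control replicate 1.

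The fibulin genes Fbln5 and Efemp2 both fell. Fbln5 (fibulin-5, chromosome 12, 101746565 to 101819119), needed for elastic fibre assembly, lay at 10.76, 10.74, 10.51 and 10.54 under control shRNA and at 9.47, 9.42, 9.18 and 9.35 under Atad2 shRNA. Its groups were well apart (-1.28 ± 0.08, 2.44-fold lower, limma adjusted p = 8.51e-12). Efemp2 (fibulin-4), also needed for that assembly, fell from 13.24, 13.21, 13.21 and 13.22 to 12.53, 12.47, 12.46 and 12.57, with the controls within 0.03 of each other (-0.71 ± 0.03). An exon of Efemp2 overlaps Mus81 on the opposite strand.

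Fibulin-1 and fibulin-2 moved in opposite directions. Fbln1 stood at 11.97, 11.92, 11.91 and 11.92 and 11.60, 11.57, 11.62 and 11.80, lower in all Atad2 libraries (-0.28 ± 0.05). Fbln2 stood at 14.28, 14.21, 14.19 and 14.17 and 14.40, 14.37, 14.34 and 14.37, higher in all of them (0.16 ± 0.03). The log2 ratio of Fbln1 to Fbln2 differed between the groups (-2.28 ± 0.02 against -2.72 ± 0.11, SD, exact permutation p = 0.0286, adjusted 0.0367). Since Fbln1 was lower and Fbln2 higher in every Atad2 library, this p could not have come out otherwise. The Fbln2 call itself was lost with quantile normalization (limma adjusted p = 0.14, range 8.87e-05 to 0.14).

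The microfibril genes were weak. Mfap2, which binds fibrillin, had 19, 7, 9 and 4 reads in the control libraries and 22, 24, 19 and 18 in the Atad2 libraries. The groups just missed overlapping on the log2 scale, at 4.24 for the highest control and 4.40 for the lowest Atad2 library (1.37 ± 0.49, limma adjusted p = 0.0206). Without control replicate 4 the call was lost (limma adjusted p = 0.0727, range 0.00234 to 0.0727). Mfap5, its relative, had 16 to 63 reads and overlapping groups (0.18 ± 0.34), and the ratio of both did not pass (exact permutation p = 0.114, adjusted 0.114). Emilin1, a glycoprotein of elastic fibres, had 22 to 31 reads in each control and 6 to 23 in each Atad2 library and did not pass (limma adjusted p = 0.16).

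Of 10 other elastic fibre genes, 9 were tested, 2 rose and 4 fell. The latent TGF-beta binding protein genes Ltbp3 and Ltbp4 rose by 0.68 ± 0.03 and 0.59 ± 0.04, and Adamtsl4 and Fbln7 changed by -0.57 ± 0.05 and -0.60 ± 0.15, each without overlap.

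In the basement membrane group, 4 of 9 members rose and 3 fell, while 2 did not pass, with a median change of -0.00. A laminin is a trimer of an alpha, a beta and a gamma chain. Of the alpha chains, Lama2 (chromosome 10, 26981285 to 27617191), the chain of adult muscle laminin, rose from 11.77, 11.73, 11.76 and 11.63 to 12.46, 12.54, 12.43 and 12.62. Lama4 (chromosome 10, 38965515 to 39110188), a chain common in vessels and embryonic muscle, fell from 11.37, 11.43, 11.28 and 11.24 to 10.35, 10.28, 10.25 and 10.58. Neither pair of groups overlapped (0.79 ± 0.04 and -0.97 ± 0.07, limma adjusted p = 2.95e-12 and 6.45e-11).

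Per kb of exon, these chains were at like levels in the controls and apart in the Atad2 libraries. Lama2 stood at 207 ± 8.57 normalized counts per kb under control shRNA and 358 ± 21.1 under Atad2 shRNA, and Lama4 at 214 ± 12.4 and 109.7 ± 12 (SD, n = 4). The log2 ratio of Lama2 to Lama4 rose from 0.39 ± 0.07 to 2.15 ± 0.09, a change of 1.75 (exact permutation p = 0.0286, adjusted 0.0367). That p was fixed by the opposite changes of both genes without overlap. Lama5, the most abundant of these 3 alpha chains per kb at 585 ± 76.4 and 581 ± 59.7 normalized counts per kb, did not pass. It lay at 12.44 to 12.85 under control shRNA and 12.60 to 12.90 under Atad2 shRNA (-0.00 ± 0.07, limma adjusted p = 0.964).

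The beta 1 and gamma 1 chains rose by like amounts. Lamb1 changed by 0.33 ± 0.04 and Lamc1 by 0.35 ± 0.03, the latter from 14.40, 14.38, 14.35 and 14.31 to 14.74, 14.71, 14.69 and 14.68, with no overlap in either gene. Lamb2, the beta chain of synaptic laminin, stood at 13.48 ± 0.02 and 13.46 ± 0.06 (-0.02 ± 0.03, limma adjusted p = 0.626) and passed with quantile normalization (limma adjusted p = 0.00845, range 0.00845 to 0.974). Lamb1 relative to Lamb2 differed on the log2 scale, at 0.95 ± 0.04 under control shRNA and 1.31 ± 0.12 under Atad2 shRNA (exact permutation p = 0.0286, adjusted 0.0367).

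The nidogens, which bridge laminin and collagen IV, moved apart the most of the 9 pairs tested. Nid1 (chromosome 13, 13437602 to 13512275) lay at 15.98, 15.95, 15.98 and 15.93 under control shRNA and at 16.52, 16.48, 16.50 and 16.49 under Atad2 shRNA, both groups very tight (0.53 ± 0.03, limma adjusted p = 2.47e-12). Nid2 (chromosome 14, 19751257 to 19811787) lay at 13.36, 13.39, 13.26 and 13.25 and at 11.71, 11.68, 11.62 and 11.92, a fall of 2.99-fold (-1.58 ± 0.05, limma adjusted p = 5.80e-16). Per kb of exon, Nid2 went from 1970.0 ± 100.2 to 659 ± 61.8 normalized counts, while Nid1 went from 9196 ± 155 to 13287 ± 165. The log2 ratio of Nid1 to Nid2 rose from 2.65 ± 0.08 to 4.76 ± 0.13, a 4.33-fold change of the ratio (exact permutation p = 0.0286, adjusted 0.0367). Here, too, the p was fixed, since Nid1 was higher and Nid2 lower in every Atad2 library. An exon of Nid2 overlaps Rtraf and an exon of Nid1 overlaps Gm48682, each on the opposite strand. The strand setting of the counting is not given in the sources used here. All members with such overlaps are named where the processing is described.

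Hspg2 encodes perlecan, the large heparan sulfate proteoglycan of the basement membrane. It lay at 16.72, 16.71, 16.70 and 16.58 under control shRNA and at 16.32, 16.37, 16.34 and 16.43 under Atad2 shRNA, lower without overlap (-0.31 ± 0.04, limma adjusted p = 3.30e-07). Of 7 other basement membrane genes, 6 were tested, 2 rose and 2 fell. Agrn, the agrin of the neuromuscular junction, rose by 0.49 ± 0.04 and Lamb3 by 0.68 ± 0.17. Lama3 fell from 79 to 117 reads in each control to 4 to 14 per Atad2 library (-3.30 ± 0.38), and Ntn4 (netrin-4) changed by -1.26 ± 0.22.

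**Figure D3:**
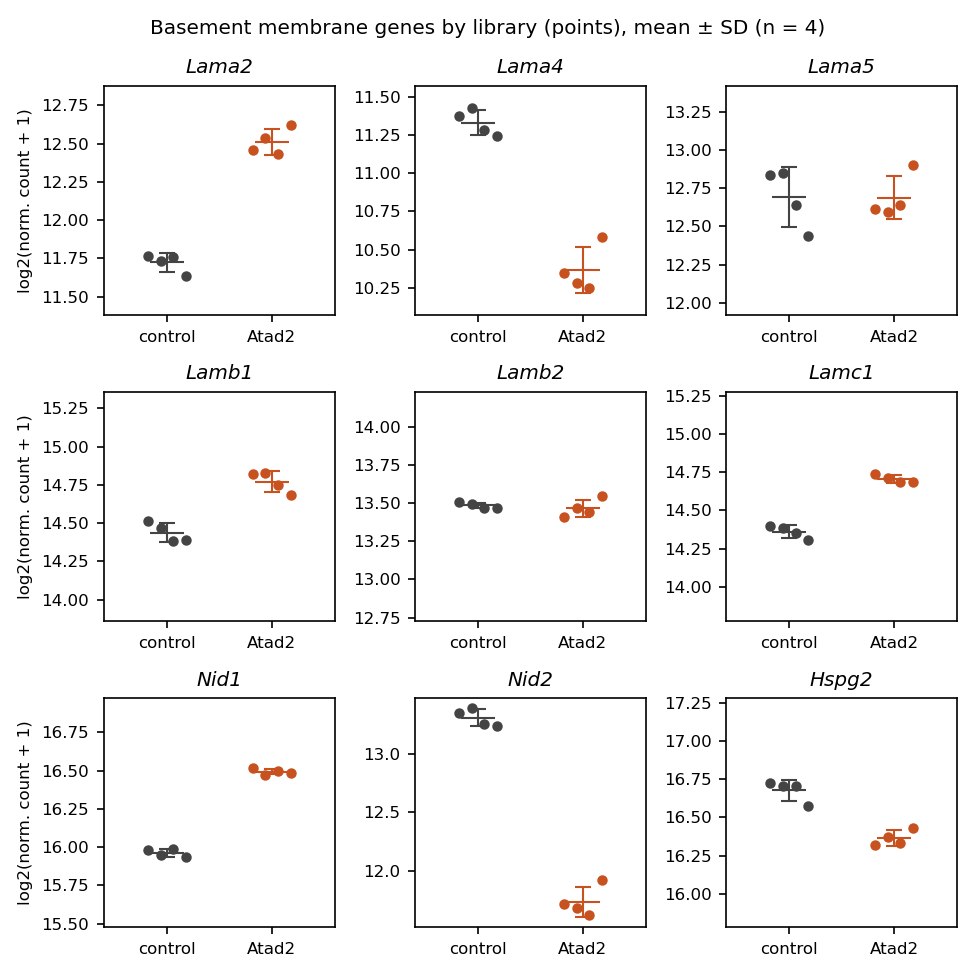
Each panel gives the log2(normalized count + 1) of one basement membrane gene in the 4 control and 4 Atad2 libraries (points) with mean ± SD; vertical axes differ between panels and do not start at 0. Lama2, Lamb1, Lamc1 and Nid1 are higher and Lama4, Nid2 and Hspg2 lower in all Atad2 libraries, while Lama5 and Lamb2 overlap.

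Of the 6 proteoglycan members, 2 rose, 2 fell, 1 did not pass and Lum (lumican) had no read in any library. Ogn encodes osteoglycin (mimecan), a small leucine-rich protein of connective tissue. It lay at 10.76, 10.67, 10.68 and 11.04 under control shRNA and at 8.93, 9.41, 9.36 and 9.79 under Atad2 shRNA, with Atad2 replicate 1 the lowest of the 8 (-1.41 ± 0.12, 2.67-fold lower, limma adjusted p = 2.82e-09).

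Ogn is the last gene of a row of 4 small leucine-rich genes on chromosome 13 (GRCm38), with Ecm2, Aspn (asporin) and Omd (osteomodulin) before it, at 49504810 to 49624501 in all. All 4 were lower in every Atad2 library than in every control. This row was singled out after its values were seen. Omd changed by -2.54 ± 0.26, Aspn by -1.72 ± 0.35 and Ecm2 by -1.57 ± 0.38. Of the protein-coding genes within 150 kb on either side, Ippk did not pass (-0.04 ± 0.06, limma adjusted p = 0.612), Nol8 rose by 0.27 ± 0.04 and Iars changed by -0.14 ± 0.04. Cenpp, whose span covers the whole row, changed by -0.58 ± 0.08. The 250 bases before the Ogn start (RefSeq, GRCm38.p6, chr13:49607765-49608014, plus strand) are shown because 3 of the 4 motifs above occur in it, more than in any other member's window.
Ogn: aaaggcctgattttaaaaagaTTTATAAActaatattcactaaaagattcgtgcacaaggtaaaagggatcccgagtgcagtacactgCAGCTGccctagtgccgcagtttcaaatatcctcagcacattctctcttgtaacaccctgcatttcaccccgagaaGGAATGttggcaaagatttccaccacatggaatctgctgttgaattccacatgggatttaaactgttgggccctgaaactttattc
The TATAAA matches, 1 on each strand, overlap each other and start 229 and 227 bases before the annotated start. GGAATG starts 86 and CAGCTG 162 bases before it.

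Bgn (biglycan), another small leucine-rich proteoglycan, stood at 15.98, 15.94, 15.87 and 15.88 and 15.85, 15.77, 15.77 and 15.82. All Atad2 libraries were lower, by little (-0.12 ± 0.03). Dcn (decorin), its closest relative, was weak, with 50, 45, 45 and 72 reads in the controls and 58, 94, 70 and 88 in the Atad2 libraries. These groups overlapped (0.74 ± 0.25, limma adjusted p = 0.0163), and the Dcn call was lost without Atad2 replicate 4 (limma adjusted p = 0.0523, range 0.000389 to 0.0523). Bgn relative to Dcn on the log2 scale, at 10.29 ± 0.25 and 9.44 ± 0.44, did not pass (exact permutation p = 0.0571, adjusted 0.0643).

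Gpc1, a glypican anchored in the cell membrane that binds FGF, rose from 15.73, 15.68, 15.66 and 15.64 to 15.997, 15.957, 15.933 and 16.007, without overlap (0.29 ± 0.03). Vcan (versican), a large hyaluronan-binding proteoglycan, stood at 16.26 ± 0.09 and 16.34 ± 0.09 in groups that overlapped (limma adjusted p = 0.138). Of 12 other proteoglycan genes, 6 were tested, 1 rose and 4 fell, of which Srgn passed the filter on low values only through the control libraries. Fmod (fibromodulin) rose by 1.29 ± 0.16, while Prelp changed by -0.84 ± 0.15 and Omd, in the row above, fell the most of them.

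Of the crosslinking and folding members, 8 of 9 were tested, 4 fell, 2 rose and 2 did not pass. Lysyl oxidases start the crosslinks of collagen and elastin. Lox lay at 13.82, 13.87, 13.73 and 13.74 under control shRNA and at 13.21, 13.08, 13.12 and 13.11 under Atad2 shRNA. Loxl3 lay at 12.80, 12.78, 12.78 and 12.75 and 12.25, 12.29, 12.20 and 12.29. Both were lower in every Atad2 library (-0.66 ± 0.04 and -0.52 ± 0.03, limma adjusted p = 3.10e-12 and 5.56e-11), and an exon of Loxl3 overlaps Htra2 on the opposite strand.

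Loxl4 (chromosome 19, 42592279 to 42612806) fell the most of the tested members of this family, from 10.21, 10.27, 10.12 and 9.98 to 8.17, 8.22, 7.62 and 8.22. Atad2 replicate 3 was the lowest of the 8 libraries (-2.09 ± 0.12, 4.26-fold lower, limma adjusted p = 3.18e-12). Loxl2 was below the mean level needed for the test. It had 9, 12, 17 and 24 reads in the control libraries and 1, 0, 0 and 0 in the Atad2 libraries. Summed over libraries and set against the total reads, this is 57.4-fold lower, with an exact (Clopper-Pearson) 95% interval of 9.93 to 2304 that covers counting error only. Without the filter on low values, the Loxl2 change was -3.62 ± 0.53 (limma adjusted p = 2.89e-05).

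Loxl1, which acts mainly on elastin, stood at 10.81 ± 0.11 and 10.82 ± 0.22 in groups that overlapped (0.02 ± 0.08, limma adjusted p = 0.878). The ratio of Lox to Loxl1 (log2) differed between the groups, at 2.99 ± 0.07 and 2.31 ± 0.25 (exact permutation p = 0.0286, adjusted 0.0367). Of the 5 lysyl oxidase genes, Lox was the most abundant per kb of exon in both groups, at 2969.9 ± 141 and 1876 ± 72.7 normalized counts per kb.

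The lysyl hydroxylases Plod1 and Plod2 modify collagen inside the cell, Plod2 at the telopeptides that enter crosslinks. Plod1 stood at 13.10, 13.06, 13.10 and 13.13 and 13.21, 13.29, 13.17 and 13.23, slightly higher in all Atad2 libraries (0.13 ± 0.03). Plod2 changed by -0.31 ± 0.04, from 11.89 ± 0.03 to 11.58 ± 0.02. Relative to Plod2, Plod1 rose by 0.44 on the log2 scale (exact permutation p = 0.0286, adjusted 0.0367). Both genes changed in opposite directions without overlap, which fixed this p. Serpinh1, the collagen chaperone HSP47, stood at 15.26, 15.23, 15.19 and 15.22 and 15.38, 15.39, 15.29 and 15.34 (0.12 ± 0.03).

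With quantile normalization the calls of Plod1 (limma adjusted p = 0.626, range 0.0010 to 0.626) and Serpinh1 (0.206, range 0.000583 to 0.206) were lost. Tgm2, a transglutaminase that crosslinks fibronectin, stood at 7.17 ± 0.33 and 7.44 ± 0.07 and did not pass (limma adjusted p = 0.177), but passed with quantile normalization (0.00317, range 0.00317 to 0.496). Of 15 other genes of collagen modification and processing, 14 were tested, 7 rose (50%) and 1 fell. A mean level above 11 was reached by 10 of the 14, and 49.9% of all genes above that level rose. Plod3 and Lepre1 (now P3h1) rose by 0.39 ± 0.03 and 0.42 ± 0.04, and Pcolce, an enhancer of procollagen cleavage, fell from 14.60 ± 0.04 to 13.55 ± 0.13 (-1.05 ± 0.04), each without overlap.

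**Figure D4:**
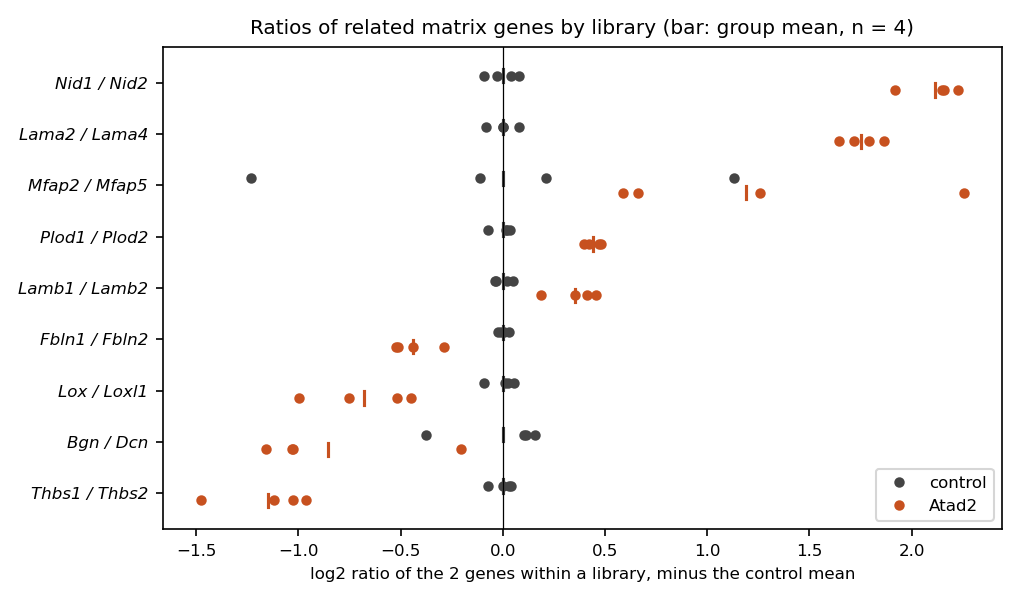
Each row gives a pair of related matrix genes: the log2 ratio of the first to the second gene in each library (points), shifted so that the control mean is 0, with the group mean as a bar (n = 4). The Nid1 to Nid2 ratio moved by 2.11 and the Lama2 to Lama4 ratio by 1.75, while the groups overlap for Mfap2 to Mfap5 and for Bgn to Dcn.

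Of 10 pairs of related genes listed, 9 could be tested, since Fbn2 had no reads, and 7 passed. The pairs were chosen with earlier results of these data known, so the passes describe these libraries and are no independent support. All 7 stood at the smallest possible p (exact permutation, 0.0286). Their adjusted value of 0.0367 depends on several pairs reaching it together. In Thbs1 and Thbs2 both members fell, by different amounts. In Nid1 and Nid2, Lama2 and Lama4, Fbln1 and Fbln2, and Plod1 and Plod2, 1 member rose and the other fell, each without overlap. The ratios of these pairs could therefore only give the smallest p, and their tests add nothing to the calls of the single genes. In Lamb1 and Lamb2 and in Lox and Loxl1, 1 member changed and the other did not pass.

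Over all 63 other matrix genes, 49 were tested, of which 18 rose (36.7%) and 17 fell (34.7%), with a median change of 0.02. Over all genes tested these shares were 30.8% and 29.6%. The changes were larger, with a median regardless of sign of 0.59 for these 49 genes, beside 0.25 over all genes tested. By at least 2-fold, 7 of the 49 rose and 12 fell, where 2.52% of all genes tested rose and 8.61% fell by as much. The list of the 63 genes was also made with earlier results of these data known, so these shares are descriptive. Some of the cell markers listed also differed between the groups. Of the 8 myoblast markers 3 rose and 5 fell, of which Pax7 and Msc passed the filter on low values only through the control libraries. The normalized counts of the 8 summed to 50916 to 54358 and 55439 to 61114. Such sums are not corrected for gene length, and the strongest genes weigh most in them. Here this was Des, which rose by 0.38 ± 0.03, from 14.74 to 15.12. In the list of differentiating muscle, 6 of 7 tested genes rose, of which Myh3 passed that filter only through the Atad2 libraries. The summed normalized counts of its 8 genes went from 729 to 936 in each control to 4706 to 5835 in each Atad2 library, with Ckm at 8 reads or fewer in every library. In the Atad2 libraries Ttn weighed most in this sum. With 116.8 kb of exon, it rose by 4.00 ± 0.07, from 8.07 to 12.07. Acta1 did not pass (-0.09 ± 0.12, limma adjusted p = 0.535). The 6 fibroblast markers summed to 14439 to 14979 and to 7028 to 8557. Ly6a, which weighed most in this sum in the controls, changed by -2.31 ± 0.11, from 13.63 to 11.32. Pdgfra rose by 1.31 ± 0.04, from 10.95 to 12.26, and Thy1 and Tcf21 had no reads. The endothelial markers summed to 14.1 to 31.0 and 11.6 to 35.6, with Tie1 and Emcn at 0. The macrophage list summed to 239 to 302 and 548 to 678, with Cd68 higher by 1.17 ± 0.11 and Adgre1 and Fcgr1 at 0, and the adipocyte list to 33.1 to 40.4 and 3.83 to 19.3, with Adipoq at 0. Fabp4 weighed most in the adipocyte sum and changed by -1.80 ± 0.45. Kdr, the only endothelial marker tested, did not pass (limma adjusted p = 0.0932). The part of these markers in the matrix results was not tested.

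**Figure D5:**
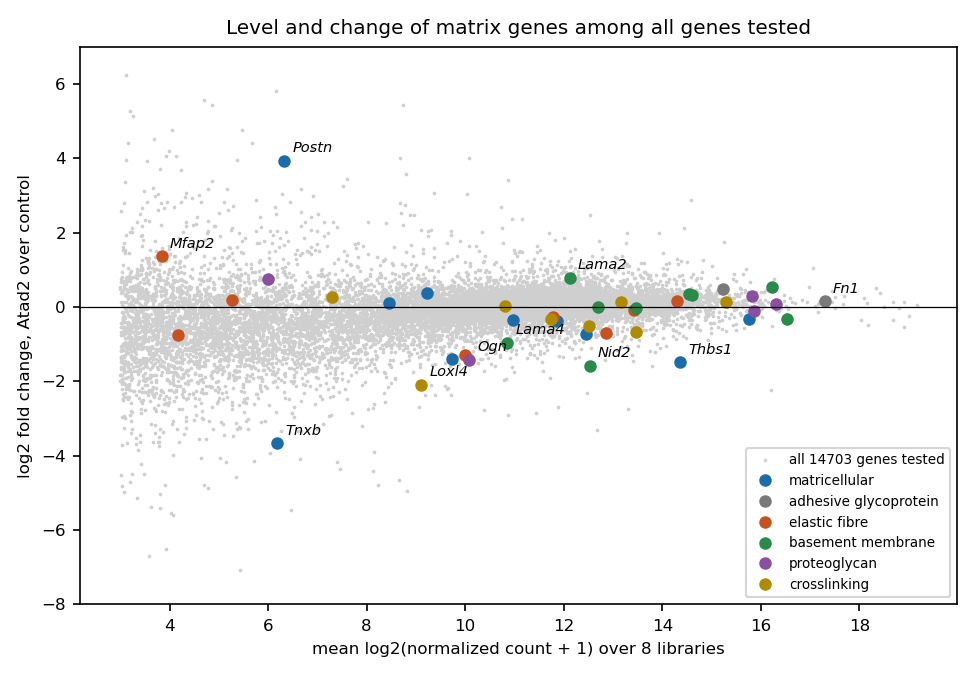
Each grey point is 1 of the 14703 genes tested, by its mean level over 8 libraries (horizontal) and its log2 fold change, Atad2 over control (vertical); coloured points are the 42 tested matrix genes by role. Most matrix genes lie at high levels with changes under 1, and Postn and Tnxb lie at low levels far from 0.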

How the data were processed

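Total RNA of 8 C2C12 libraries (4 control shRNA, 4 Atad2 shRNA, 48 h after transfection) had been sequenced. The submitters' processing notes list HTSeq 0.13.5, SAMtools 1.1, bcl2fastq 2.20, DESeq2 and the build mm10. Which aligner, annotation and strand setting were used is not given in the sources used here, and the 20 members with an exon that overlaps another gene's are uncertain. Besides Tnxb, Thbs3, Efemp2, Nid2 and Loxl3, these are Ecm1, Eln, Fbn1, Fbn2, Fn1, Gpc1, Lama2 and Lox. Loxl2, Mfap4, Nid1, Plod2, Tgm2, Thbs1 and Tnc also belong to them. As the authors deposited them, values are log2(x + 1), where x is a gene's reads over a scaling constant of its library, as read from the values. Converted back, 100% of the low values (up to 100 reads) were whole multiples of 1 step per library within 0.1 reads. On these reads limma-voom called 4567 genes higher and 4385 lower. Higher read counts are approximate, since values carry 3 decimals. Gene coordinates came from RefSeq (GRCm38.p6, 48 of 48 members matched), and exon lengths from GENCODE M21 on the same assembly.

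Genes with a mean above 3 were fitted together with limma 3.58.1 in R 4.3.3 (eBayes with trend, no covariates), two-sided, with Benjamini-Hochberg adjustment over 14703 genes. Ratios of related genes within a library were compared by exact permutation tests in Python 3.11.15 with NumPy 2.4.6. The members, role lists and pairs were chosen with earlier results of these data known. Values in every library are given for the members of each role with the largest called changes (up to 3 in each direction), and for other matrix genes those with the 2 lowest adjusted p in each direction and role are named. Alternatives were other filters, offsets, normalizations, priors and weights, limma-voom on recovered reads, a replicate block, leaving out each library and stricter thresholds. The fit was tested on simulated data first, with 50 genes changed at each size. It recovered 56% at a log2 change of 0.25, 98% at 0.5 and 100% at 1 and at 2. Far fewer genes were changed there than were called here, so the simulation does not cover changes as widespread as these. It also gave all genes the same small dispersion and changed no weak genes. The recovery of weak members, or of those that spread widely between libraries, is therefore not covered.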

Additional observations from a re-analysis of the deposited data

Results flagged for a closer look

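In 7 of the 88 groups of 4 libraries looked at, 1 library lay far from the other 3 (Dixon's gap test at its 95% critical value, which chance passes in about 1 of 20 groups). On the log2 scale, Wisp2 stood at 9.16 in Atad2 replicate 4 against 8.24 to 8.33 in the others, and Lama5 at 12.90 in the same library against 12.60 to 12.64. Loxl4 stood at 7.62 in Atad2 replicate 3 against 8.17 to 8.22. Hspg2 stood at 16.58 in control replicate 4 against 16.70 to 16.72, and Fbln1 at 11.97 in control replicate 1 against 11.91 to 11.92. In 2 weak genes the distance is a matter of a few reads: Tgfbi stood at 0 in Atad2 replicate 2 against 3.32 to 3.78, and Loxl2 at 0.94 in Atad2 replicate 1 against 0 in the others.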

How the results depend on the processing

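Of the 34 called members, 26 kept call and direction under all 18 alternative fits, and 8 (Tnc, Fn1, Fbn1, Fbln2, Mfap2, Dcn, Plod1 and Serpinh1) lost the call under at least 1. With a 2-fold minimum, 2 members were higher and 7 lower. By role, higher and lower members were then 1 and 3 (matricellular), 0 and 0 (adhesive), 1 and 1 (elastic fibre), 0 and 1 (basement membrane), 0 and 1 (proteoglycan) and 0 and 1 (crosslinking), and of the other matrix genes 7 were higher and 12 lower. Quantile normalization left 1 higher member each in the adhesive, elastic fibre and crosslinking roles, a mean above 5 left 1 in the elastic fibre role, and an adjusted p under 0.01 left 1 each in the elastic fibre and proteoglycan roles. Leaving out 1 library gave 1 to 2 higher elastic fibre members (1 without control replicate 4) and 1 to 2 higher proteoglycan members (1 without Atad2 replicate 4). The Bgn to Dcn ratio passed with quantile normalization (-1.41, exact permutation p adjusted 0.0321).

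Only members that had not passed changed sign. With library weights Wisp2 changed by -0.0067 and Loxl1 by -0.021, and with quantile normalization Vcan changed by -0.068. Leaving out 1 library at a time gave -0.12 to 0.18 for Wisp2, -0.013 to 0.49 for Mfap5, -0.089 to 0.049 for Lama5 and -0.084 to 0.072 for Loxl1. The cause was not tested.

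Same-numbered libraries did not deviate together over all genes tested (correlations of -0.02 to 0.03). This cannot show whether they were made together, and the labels do not say. With the replicate block 14 members were higher and 20 lower, and 18 other matrix genes were higher and 18 lower. The block changed no member's call. Sign flips of 4 pairs cannot give a p under 0.125. Without 1 library, permutation over the ratios cannot pass, and those ratios kept their direction. Tgfbi and Loxl2 had reads but were not tested because their mean level was under the filter. Without the filter Loxl2 passed (limma adjusted p = 2.89e-05) and Tgfbi did not (0.737).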
